A study of Mus musculus with 12 samples.

Results

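Genes of microglia, the macrophages that live in the brain, were compared between the rostral and the caudal end of the neocortex of mouse embryos at E13.5. The set held 8 genes: Tyrobp, Fcer1g, Csf1r, Cx3cr1, Aif1, C1qa, C1qb and Ptprc. They were taken by symbol from the probe annotation of the array platform, which listed 1 probe for each of 7 of them and no probe under Csf1r, so Csf1r was not analysed here. Of the 7, 6 were among the 14418 features (genes, or probes without a gene name) that had enough values to be tested, and Cx3cr1 was not.

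Rostral and caudal RNA of the same embryos competed on arrays that read the dyes Cy5 and Cy3. Tissue of 3 embryos was pooled per sample, per the labels. MF1, an outbred strain, gave 3 pools and C57, an inbred strain, gave 3, and no treatment is named for either. A pool was run on an array and on its dye swap, 12 arrays in all, after cDNA amplification with the SMART method, per the series' design text. Values below are log2 ratios, rostral over caudal, relative to the median of their array, so that 0 stands for no difference. A pool's ratio is the mean of its 2 arrays.

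Microglia do not arise from the neural tube. They descend from macrophage progenitors of the yolk sac and enter the forebrain through the meninges, the ventricles and the vessels while cortical neurons are being made. They depend on the receptor Csf1r and its ligands Csf1 and Il34, sense the neuronal chemokine Cx3cl1 through Cx3cr1, and signal through immunoreceptors whose activating motif lies in the adaptors Tyrobp and Fcer1g. In whole tissue a lower ratio of such a gene cannot tell fewer microglia from less RNA per microglial cell.

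The MF1 arrays held values for 19453 to 20997 of 21998 probes and the C57 arrays for 17998 to 19252, with a robust SD of the log2 ratios of 0.38 to 0.64 on MF1 arrays and 0.64 to 0.88 on C57 arrays. Each array held 1 strain, so the strains cannot be told apart from these sets of arrays. No label names the numerator of the ratios. Cy5 over Cy3 was assumed because it puts Nr2f1 and Lhx2, known for caudal expression, below 0. An array was turned where its rostral RNA was in Cy3, so the sign of every ratio is a likely one and not settled. Of 5 genes known for caudal expression, 4 were below 0 and 1 above, with a median of -0.38. Nr2f1 and Lhx2 are among these 5, so their values are no check of the sign. Of 9 genes known for rostral expression 6 were above 0 and 3 below, with a median of 0.19 and a lowest value of -0.39. None of these 14 genes passed the adjusted threshold in limma. Nr2f1, a regulator of caudal area identity, stood at -1.14 ± 0.57 (SD, n = 6), and Lhx2, a factor of cortical progenitors with a caudal bias, at -0.50 ± 0.13 (SD, n = 6); both were singled out after their values were seen. After turning, both arrays of a pool had the same sign in 6 of 6 pools for each of these genes. That agreement would be the same with Cy3 as the numerator, so it does not bear on the assumed sign. Across all probes, which are not independent replicates, the turned values of both arrays of a pool had Pearson correlations of -0.013 to 0.089 in MF1 and of -0.37 to -0.16 in C57. Nothing in the labels says that pools came from separate litters, so the p-values measure the spread between these pools, which may be partly technical.

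None of the 6 tested microglial genes was shown to differ between rostral and caudal cortex beyond the spread between pools. In the limma fit of pool means over both strains 0 of 6 passed an adjusted p of 0.05, as did 0 of all 14418 features (0%). At an unadjusted p under 0.05, 8.98% of all features and 1 of the 6 genes, Fcer1g, were below the threshold. The median of the 6 estimates was 0.07, against 0.01 over all features, with 4 genes above 0 and 2 below. The estimates ran from -0.37 for Ptprc to 0.34 for Fcer1g.

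Tyrobp, also called DAP12, is the transmembrane adaptor that carries the activating signal of Trem2 and related receptors into the kinase Syk. Its ratios were 0.092, 0.037 and 0.29 in MF1 pools 1 to 3, and 0.39, 0.17 and 0.61 in C57 pools 1 to 3. It was above 0 in 6 of 6 pools, and the pools of the strains overlapped. Of all features, some with fewer than 6 pools, 3.32% were above 0 in every pool measured. The limma estimate over both strains was 0.26 (95% interval -0.0034 to 0.53), a 1.2-fold difference, with an adjusted p of 0.555. By strain it was 0.14 in MF1 (-0.24 to 0.52) and 0.39 in C57 (0.012 to 0.77).

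The arrays behind these means did not share a sign. With rostral RNA in Cy5, Tyrobp stood at 1.29, 0.59 and 1.56 in C57 pools 1 to 3. With rostral RNA in Cy3 the same pools gave -0.50, -0.25 and -0.35. In MF1 the values were small in either orientation, at -0.10, 0.097 and 0.18 with rostral RNA in Cy5 and 0.28, -0.023 and 0.39 with rostral RNA in Cy3. Both arrays of a pool had the same sign in 1 of 6 pools, MF1 pool 3.

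Read without turning, as Cy5 over Cy3, the centred Tyrobp values were above 0 on all 6 C57 arrays, whichever end was in Cy5. The same held for 8.57% of the 12119 tested features with a value on all 6 of these arrays. In a limma fit with no array turned, the C57 mean of Tyrobp was 0.76 with an adjusted p of 0.0334, and 9.51% of all features passed in that fit. The MF1 mean was -0.079 (adjusted p = 0.953), and the difference MF1 minus C57 of -0.84 did not pass (adjusted p = 0.0981; 0.312% of all features passed). None of the other 5 tested genes passed there in either strain, with adjusted p-values of 0.229 or more in limma. In C57 the mean that followed the dye was thus 0.76 and the mean that followed the end of the cortex 0.39; the one was not tested against the other.

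Fcer1g, the gamma chain shared by activating Fc receptors and the high-affinity IgE receptor, is the other adaptor. Its ratios were -0.20, -0.063 and 0 in MF1 pools 1 to 3, and 0.63 and 0.89 in C57 pools 1 and 3. C57 pool 2 had a value in 1 orientation and gave no ratio. The MF1 pools all lay below the C57 pools, as they did for 5.95% of all features. The strain difference was -0.85 (95% interval -1.47 to -0.22), with -0.089 ± 0.10 in MF1 (SD, n = 3) and 0.76 ± 0.19 in C57 (SD, n = 2), and it did not pass in limma (adjusted p = 0.752). The estimate over both strains, which weights them equally, was 0.34 (0.023 to 0.65), with an adjusted p of 0.538. It was 0.70 with pools of 1 orientation admitted and 0.51 in a fit of the 12 single arrays, and neither passed in limma (adjusted p = 0.663 and 0.625).

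As for Tyrobp, the C57 values of Fcer1g were high with rostral RNA in Cy5. They stood at 0.36, 2.96 and 2.63 in pools 1 to 3, against 0.90 in pool 1 and -0.85 in pool 3 with rostral RNA in Cy3. C57 pool 1 was thus above 0 in both orientations, and C57 pool 3 had opposite signs. The MF1 arrays lay between -0.12 and -0.086 with rostral RNA in Cy5 and between -0.29 and 0.12 with rostral RNA in Cy3.

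**Figure D1:**
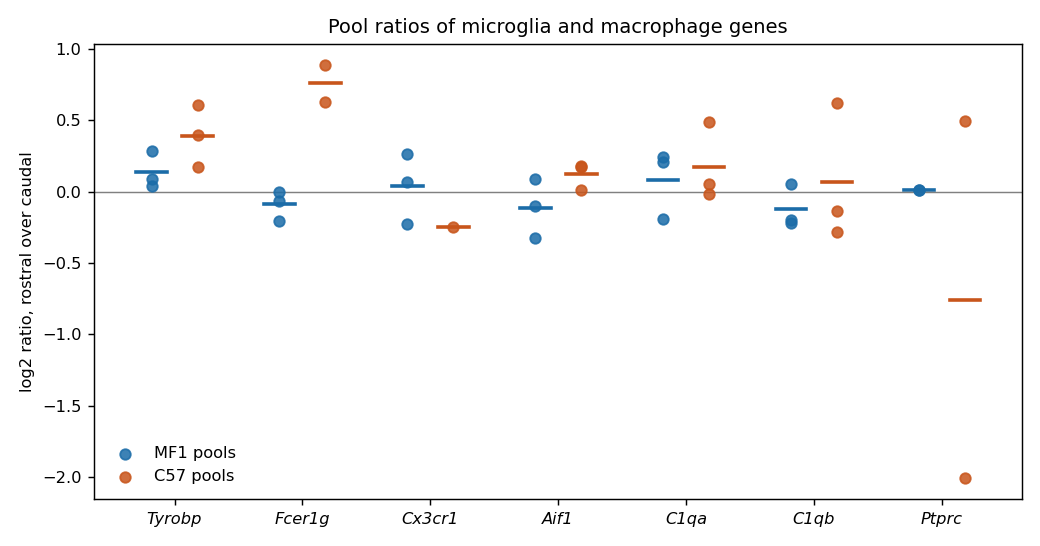
Log2 ratio of rostral over caudal cortex (vertical axis) for the 7 genes with a probe. Each point is a pool with both dye orientations, MF1 left and C57 right, and bars are strain means. Tyrobp is above 0 in all 6 pools, the MF1 and C57 points of Fcer1g do not overlap, and C57 pool 1 of Ptprc lies at -2.01.

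Cx3cr1, the receptor for the neuronal chemokine fractalkine, had ratios of 0.27, 0.071 and -0.23 in MF1 pools 1 to 3, and -0.25 in C57 pool 1. The MF1 pools lay on both sides of 0, and their mean was 0.037 ± 0.25 (SD, n = 3). Both MF1 arrays of a pool had the same sign in all 3 pools. In C57 only 3 of 6 arrays had a value, -1.006 and -1.20 with rostral RNA in Cy5 in pools 1 and 2, and 0.51 with rostral RNA in Cy3 in pool 1. With 1 C57 pool, the gene was left out of the fit.

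Ptprc, or CD45, is a receptor tyrosine phosphatase found on leukocytes. Its ratios were 0.011 and 0.0095 in MF1 pools 1 and 2, and -2.01 and 0.49 in C57 pools 1 and 2. MF1 pool 3 and C57 pool 3 each lacked 1 orientation. The near-zero ratio of MF1 pool 1 was the mean of 1.84 with rostral RNA in Cy5 and -1.82 with rostral RNA in Cy3. In C57 pool 1 the orientations gave -0.39 and -3.63. The estimate over both strains was -0.37, and its interval of -1.50 to 0.75 was the widest of the 6 genes (limma, adjusted p = 0.822). With 1 C57 pool left in the fit, it was 0.25 without C57 pool 1 and -0.999 without C57 pool 2. With pools of 1 orientation admitted it was 0.075.

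Aif1 encodes Iba1, a calcium-binding protein of the actin cytoskeleton that is the usual stain for microglia. Its ratios were -0.10, -0.33 and 0.091 in MF1 pools 1 to 3, and 0.18, 0.0095 and 0.18 in C57 pools 1 to 3. The pools of the strains overlapped and the estimate over both strains was 0.0050 (95% interval -0.26 to 0.27; limma, adjusted p = 0.99). The interval ends at folds of 0.837 and 1.20, rostral over caudal. Aif1 and Tyrobp had both arrays of a pool on the same side in the fewest pools of the genes measured in 6, 1 of 6 each. With arrays not centred Aif1 stood at -0.18, where the median of all features was -0.18.

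C1qa and C1qb encode chains of C1q, the recognition molecule that starts the classical complement pathway and is made by microglia in the brain. In the RefSeq gene table (GRCm38.p6) the 2 genes flank C1qc, the gene of the remaining chain. C1qa had ratios of 0.24, 0.21 and -0.19 in MF1 pools 1 to 3, and 0.054, 0.49 and -0.015 in C57 pools 1 to 3. C1qb had ratios of 0.051, -0.22 and -0.20 in MF1 pools 1 to 3, and -0.28, 0.62 and -0.14 in C57 pools 1 to 3. Both genes were highest in C57 pool 2, where both orientations were above 0 for each, and in both genes the strains overlapped.

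The estimate of C1qa over both strains was 0.13 (95% interval -0.17 to 0.43; limma, adjusted p = 0.781) and that of C1qb was -0.028 (-0.38 to 0.33; adjusted p = 0.962). C1qc, which is not in the set of 8, stood at -0.079 ± 0.20 (SD, n = 6; limma, adjusted p = 0.859). The signs of the 3 chains are therefore not settled by these pools. C1qa stood at -0.059 with arrays not centred, at 0.052 without C57 pool 2 and at 0.20 without MF1 pool 3, and C1qb at 0.059 without C57 pool 1 and 0.023 without C57 pool 3.

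**Figure D2:**
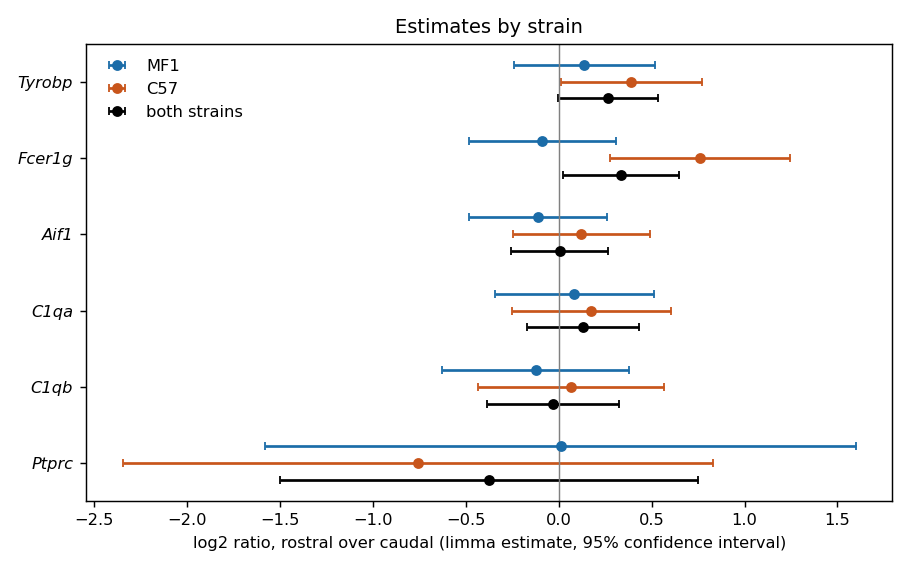
Limma estimates of the log2 ratio of rostral over caudal cortex (horizontal axis) with 95% confidence intervals for the 6 tested genes, in MF1, in C57 and over both strains. Intervals for C57 exclude 0 for Tyrobp and Fcer1g without adjustment for the 14418 features, and neither passes after adjustment; the intervals of Ptprc are the widest.

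Taken by strain, the 6 genes had a median of -0.039 in MF1 and 0.15 in C57, against 0.010 and 0.0043 over all features. No gene passed in MF1 (limma, adjusted p = 0.9995 for each), where 4.36% of all features and 0 of the 6 genes had an unadjusted p under 0.05. None passed in C57 either (adjusted p between 0.338 for Fcer1g and 0.942 for C1qb). There 9.71% of all features and 2 of the 6 genes, Tyrobp (limma, adjusted p = 0.501) and Fcer1g (limma, adjusted p = 0.338), had an unadjusted p under 0.05. The strain difference passed for 0 of the 6 genes and 0 of all features, and at an unadjusted p under 0.05 for Fcer1g (limma, adjusted p = 0.752) and 6.1% of all features.

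In most pool ratios of these genes the arrays of a pool did not agree in sign. The same held for most pool ratios of all features in C57, but not in MF1. Both arrays of a pool agreed in sign in 6 of 17 pool ratios in MF1 and 6 of 16 in C57, counted over the 6 tested genes. Over all tested features the share was 57.3% in MF1 and 44.6% in C57. Per gene measured in 6 pools, the count was 1 for Tyrobp, 1 for Aif1, 2 for C1qa and 3 for C1qb; 31.8% of all features with 6 pools had 2 or fewer. The mean with rostral RNA in Cy5 and that with rostral RNA in Cy3 were 0.60 and -0.074 for Tyrobp, 0.94 and -0.032 for Fcer1g, and 0.29 and -0.029 for C1qa. For Ptprc they were 0.60 and -0.81. For Aif1 (-0.011 and 0.021) and C1qb (0.0045 and -0.061) both stayed near 0. By contrast Nr2f1 had -1.15 with rostral RNA in Cy5 and -1.13 with rostral RNA in Cy3. The means of this paragraph are plain means over pools. Limma fits of 1 orientation, which weight the strains equally, gave Ptprc 0.67 with rostral RNA in Cy5 and -0.93 with it in Cy3. They gave Fcer1g -0.023 with rostral RNA in Cy3. The part of the dyes and of the arrays in the ratios of these genes was not tested beyond these values.

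**Figure D3:**
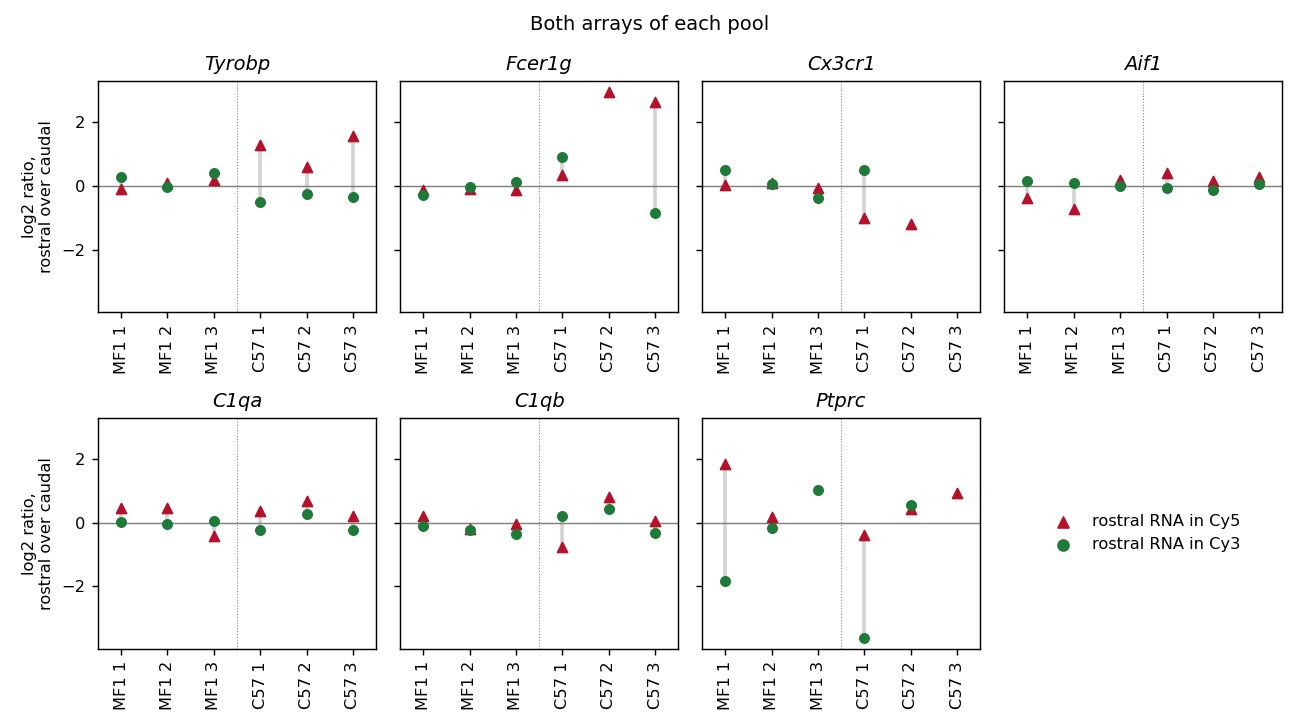
Log2 ratio of rostral over caudal cortex on each array (vertical axis) by pool (horizontal axis), 1 panel per gene. Triangles have rostral RNA in Cy5, circles have it in Cy3, a grey line joins the arrays of a pool, and a missing symbol is a missing value. For Tyrobp the triangles lie above 0 and the circles below 0 in every C57 pool, while the MF1 symbols lie close together.

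The mean profile of Tyrobp, Aif1, C1qa and C1qb, the genes measured in 6 pools, was 0.070, -0.076 and -0.0038 in MF1 pools 1 to 3, and 0.085, 0.32 and 0.16 in C57 pools 1 to 3. Among 8875 other named genes measured in 6 pools, the profiles most like it were those of Elk4 (Pearson r = 0.992 across 6 pools), Spag1 (0.978), Cntln (0.977), Serpinb9 (0.973) and Atxn7l4 (0.973). All these values come from the same 12 arrays, and r over 6 pools is given as a description only. Serpinb9, a granzyme B inhibitor, was above 0 in 6 of 6 pools, with ratios of 0.24 to 0.76 in MF1 and 0.73 to 1.23 in C57. Of all features, some with fewer than 6 pools, 3.32% were above 0 in every pool measured. The others each had pools on both sides of 0, with Elk4 at -0.33 in MF1 pool 2 and 0.45 in C57 pool 2.

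The lists of ligands and partners of the set had 0 members past the adjusted threshold. Of the ligands of Csf1r and Cx3cr1 and their signalling partners, 7 were tested and 0 passed in limma, with a median of -0.060. Csf1 stood at -0.060 ± 0.38 (SD, n = 6). The members of smallest p were Cx3cl1, at 0.21 ± 0.47 (n = 5; adjusted p = 0.661), and Il34, at 0.28 ± 0.81 (n = 5; adjusted p = 0.832). These are plain means over pools. The limma estimates, to which the adjusted p-values belong, weight the strains equally and were 0.27 for Cx3cl1 and 0.27 for Il34. Of 16 partner receptors and kinases of Tyrobp and Fcer1g with a probe, 5 were tested and 0 passed, with a median of -0.22. Inpp5d, a lipid phosphatase that restrains signalling of this kind, stood at -0.28 ± 0.32 (adjusted p = 0.606), and Syk, the kinase that both adaptors recruit, at -0.31 ± 0.51 (adjusted p = 0.654). Trem2, a receptor that needs Tyrobp, was at -0.11 ± 0.52 (SD, n = 6 for these 3 genes). The median over all features was 0.01 in this fit.

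Of 11 other complement genes with a probe, 7 were tested, with a median of -0.079 and 0 passing. C5ar1, the receptor for the complement fragment C5a, stood at 0.22 ± 0.22 (limma, adjusted p = 0.594) and C1qbp, a mostly mitochondrial protein that binds C1q, at 0.31 ± 0.50 (adjusted p = 0.597; SD, n = 6). Of leukocyte signalling genes around Ptprc, 12 were tested and 0 passed, with a median of -0.11. Selplg, a ligand of selectins, was at -0.79 ± 0.65 (n = 5; limma, adjusted p = 0.504) and Cd53, a tetraspanin of leukocytes, at 0.54 ± 0.88 (n = 6; adjusted p = 0.599). The value of Selplg is a plain mean over pools, and the lowest limma estimate among these 12 genes was -0.72.

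Myeloid transcription factors had a median of -0.0084 over 9 genes, and 0 passed. Sall1, a factor of microglial identity that neural progenitors also express, was at 0.44 ± 0.29, and Runx1, a factor of blood formation, at 0.46 ± 0.37, each above 0 in 6 of 6 pools (SD, n = 6; limma, adjusted p = 0.455 and 0.484). Of all features, 3.32% were above 0 in every pool measured. Spi1, or PU.1, on which macrophages depend, had ratios in the 3 MF1 pools, at 0.071 ± 0.28, and in 0 of the C57 pools.

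Further microglial and macrophage genes, 35 with a probe, gave 23 tested genes with a median of 0.019, 12 of them above 0 and 11 below. None passed, and at an unadjusted p under 0.05 there was 1 on each side. Cd33, an inhibitory receptor that binds sialic acid, was at 0.78 ± 0.34 (SD, n = 4) and Ctsd, a lysosomal protease, at -0.43 ± 0.39 (SD, n = 5). Their adjusted p-values in limma were 0.455 and 0.507. P2ry12, a receptor typical of microglia, stood at 0.15 ± 0.29 (SD, n = 6). Macrophages of the brain's borders had a median of -0.26 over 6 tested genes, with 4 below 0 and 0 passing. Dab2, an endocytic adaptor, was at -0.71 ± 0.47, and Cbr2, a carbonyl reductase, at -0.32 ± 0.55 (SD, n = 6; limma, adjusted p = 0.445 and 0.594).

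Markers of other cells that a piece of cortex can carry showed 0 members past the adjusted threshold in limma. Medians over both strains were 0.099 over 6 lymphocyte genes, -0.10 over 11 genes of granulocytes and mast cells, -0.060 over 9 genes of red blood cells and -0.020 over 14 of blood vessels. They were -0.069 over 13 genes of meninges and mesenchyme and -0.34 over 4 of choroid plexus. The pool medians of the tested microglial genes were highest in C57 pool 2, at 0.49 over the 5 genes with a ratio there. In that pool the median of the other microglial and macrophage genes was -0.090 and that of the border macrophage genes -0.40. Myeloid transcription factors stood at 0.37 there, complement genes at 0.23, and partner receptors and kinases at -0.033. Leukocyte signalling genes stood at -0.10, and the ligands of Csf1r and Cx3cr1 with their signalling partners at -0.23. Radial glia stood at 0.0665 and postmitotic neurons at 0.0235. The granulocyte list stood at -0.53, the red blood cell list at -0.36, the vessel list at -0.084, the meninges list at -0.38 and the choroid plexus list at -0.62, while the lymphocyte list stood at 0.67. The part of these cells in the ratios was not tested.

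The arrays differed in how often these genes had a value at all. Of the values of the 7 genes, 2.38% were missing on the MF1 arrays (1 of 42) and 11.9% on the C57 arrays (5 of 42). Over all features 7.63% were missing in MF1 and 13.1% in C57. The partner receptors and kinases of Tyrobp and Fcer1g lacked 5.21% of values in MF1 and 33.3% in C57, and 5 of the 16 had enough values to be tested, against 71.4% of all features. Other microglial and macrophage genes lacked 2.86% in MF1 and 18.1% in C57. Genes of radial glia (12) and of postmitotic neurons (10), the cells that make up most of this tissue, had a value on every array. Neither the labels nor the file say why a value is missing.

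**Figure D4:**
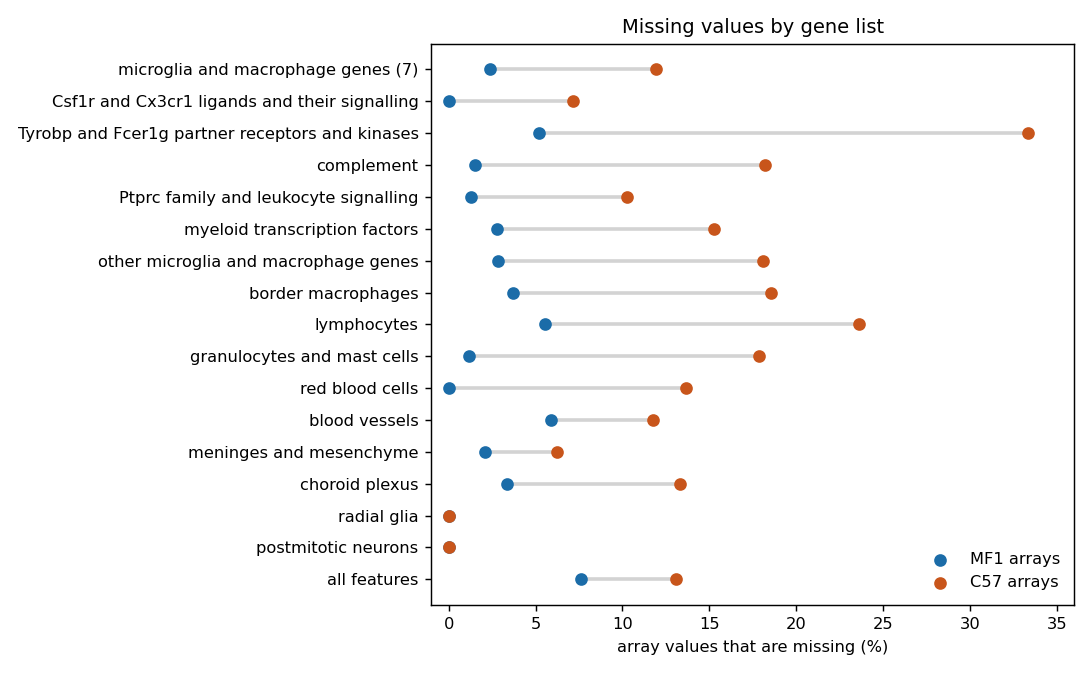
Share of array values that are missing (horizontal axis, percent) for the genes of each list, on the 6 MF1 arrays and the 6 C57 arrays. The microglia and macrophage genes lack 2.38% in MF1 and 11.9% in C57, the partner receptors and kinases 5.21% and 33.3%, and radial glia and neurons 0 in both.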

How the data were processed

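The authors deposited log2 ratios between the dyes of each array; the log2 scale was read from the values, which were signed, lay around 0 and ended at a ceiling of 16.61. The sources used here name no image analysis, background correction or normalization and hold no signal over background, and the number of arrays limits the precision. The 701 ceiling values were set to missing; 0 columns belonged to other samples. Each array was centred on its median and arrays with rostral RNA in Cy3 were turned. Of 21998 probes, 16864 carried 1 symbol, 139 several and 4995 none; probes of 1 gene were averaged. A pool needed both orientations and a feature 2 pools per strain. The test was limma 3.58.1 (lmFit and eBayes in R 4.3.3) on pool means, with 1 mean per strain and Benjamini-Hochberg adjustment over 14418 features and a threshold of 0.05. Values given with an SD are plain means over pools. Limma estimates over both strains, and their adjusted p-values, weight the strains equally. The plain mean and the estimate can therefore differ where the strains have unequal numbers of pools. On simulated pool means of rostral over caudal cortex in both strains, over 14418 features, the fit recovered 52% of planted log2 changes of 1 and 78% of those of 2. It also passed 6 features with no planted change. No change smaller than 1 was planted, so the recovery of changes as small as the estimates of the 6 genes (-0.37 to 0.34) was not examined.

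The genes and lists were chosen with earlier results of these data known, so no set test was run. Named besides the 8 genes are, from each list of partner, macrophage and myeloid genes, the 2 of smallest p, the 5 genes most alike in profile, and Csf1, Trem2, C1qc, Spi1, P2ry12, Nr2f1 and Lhx2, which were chosen after their values were seen. The rule also covered lists of other cell types, which are given here as medians. Alternatives concerned centring, scaling, the ceiling, dye orientation, the unit of the fit, missing values, probes, turning, single pools and a replicate block; leaving out pools with 1 pool per strain admitted was added after seeing the data.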

Additional observations from a re-analysis of the deposited data

Results flagged for a closer look

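C1qb in C57 pool 2 had a ratio of 0.621, far from the other 5 pools, which lay between -0.28 and 0.051. Its gap to the nearest of them was 0.631 of the whole range of the 6 pools. Such a gap turns up by chance in about 1 of 20 groups, and 6 genes were checked. Both orientations of that pool were above 0, at 0.81 with rostral RNA in Cy5 and 0.44 with rostral RNA in Cy3, and C1qa was highest in the same pool at 0.49.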

How the results depend on the processing

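Over 23 alternatives, 0 of the 6 genes passed the adjusted threshold over both strains (128 values in all, 104 of them with the same sign as reported and 24 reversed), in MF1 or for the strain difference. These values are not independent. Several settings return the reported estimate unchanged, as the replicate block did for Tyrobp (0.26), and others repeat one another. The signs also include the fit with no array turned, which compares Cy5 with Cy3. Their count is therefore no measure of robustness. In C57, 1 of 128 values passed, that of Tyrobp with no array turned (limma, adjusted p = 0.0334). All values that follow are limma estimates, or medians of them, over both strains with equal weight for each strain. Tyrobp was at -0.074, Fcer1g at -0.023 and C1qa at -0.029 with rostral RNA in Cy3 only. With rostral RNA in Cy5 only, Aif1 was at -0.011, C1qb at 0.0045 and Ptprc at 0.67. The median of the genes, reported as 0.07, was 0.29 with rostral RNA in Cy5 only (7 genes), -0.045 with rostral RNA in Cy3 only and -0.12 with arrays not centred, against -0.18 over all features. With no array turned, where values are Cy5 over Cy3 and not rostral over caudal, Aif1 was at -0.016, C1qb at 0.033 and Ptprc at 0.89. With arrays not centred Aif1 was at -0.18 and C1qa at -0.059, and with arrays scaled Aif1 was at -0.025. With pools of 1 orientation admitted Ptprc was at 0.075 and Fcer1g at 0.70, against 0.34 as reported, and the fit of 12 arrays gave Fcer1g at 0.51.

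Single pools were left out in 2 ways. At first a strain had to keep 2 pools. That gave no value for Fcer1g without C57 pool 1 or 3, nor for Ptprc without pool 1 or 2 of either strain. The repeat, chosen after seeing the data, admitted a strain with 1 pool, which is assumed to vary like the other strain. Over both ways Tyrobp ran from 0.21 to 0.32, Fcer1g from 0.27 to 0.40, Aif1 from -0.046 to 0.058, C1qa from 0.052 to 0.20, C1qb from -0.17 to 0.059, Ptprc from -0.999 to 0.25, and the median of the genes from 0.023 (without C57 pool 3) to 0.21 (without C57 pool 1, with Fcer1g and Ptprc in 1 C57 pool each). Fcer1g was at 0.40 without C57 pool 1 and 0.27 without C57 pool 3. Aif1 turned to -0.046 without MF1 pool 3, -0.0084 without C57 pool 1 and -0.0099 without C57 pool 3, C1qb without C57 pool 1 (0.059) or C57 pool 3 (0.023), and Ptprc without C57 pool 1 (0.25).

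The counts over all features were 0 as reported and rose in some settings, where the cause was not tested. A fit of the 12 single arrays, in which pool was a random block, gave 25 features over both strains, 3 in MF1 and 11 in C57; features complete on 12 arrays gave 5 over both strains. A single orientation gave 118 in C57 with rostral RNA in Cy5 and 188 with rostral RNA in Cy3. With no array turned, a comparison of Cy5 with Cy3, there were 253 over both strains, 1371 in C57 and 45 for the strain difference. Pool numbers did not pair the strains (correlations of deviations of -0.14, 0.058 and -0.0039), and the replicate block passed 0 features.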
